A study of Mus musculus with 12 samples.

Results

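Pericentral markers are the genes that the hepatocytes around the central vein of the liver lobule express most strongly. A list of 10 such genes was followed here across 4 groups of mice: the glutamine synthetase gene Glul, the cytochrome P450 genes Cyp2e1 and Cyp1a2, the ornithine aminotransferase gene Oat, the glutamate transporter gene Slc1a2, the ammonium transporter gene Rhbg, the secreted factor gene Lect2, the Wnt feedback gene Axin2, the transcription factor gene Tbx3 and the vitamin C synthesis gene Gulo. Each of the 10 was found by its symbol among the 23420 symbols of the deposited tables. Membership is by symbol and uses no measured value. Livers were taken at ZT10, that is 10 h after lights on in a 12 h light and 12 h dark cycle, from C57BL/6 mice about 20 weeks old on normal chow. The groups were wild type females (WTF), Siah2 KO females (KOF), wild type males (WTM) and Siah2 KO males (KOM), with 3 mice in each. Siah2 encodes a ubiquitin ligase. Both genotypes were kept as related homozygous lines, so line and genotype cannot be told apart. The labels speak of RNA pooled from 3 mice, whereas the methods of the study describe single livers, and the latter was used.

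The liver lobule is divided into zones along the flow of blood from the portal vein to the central vein. Endothelial cells of the central vein secrete Wnt ligands and R-spondins, which stabilise beta-catenin in neighbouring hepatocytes, and TCF/LEF factors then switch on the pericentral programme of glutamine synthesis and drug oxidation. Periportal hepatocytes carry out urea synthesis and gluconeogenesis instead, and Wnt signalling keeps that programme low around the central vein. In RNA from whole liver, fewer cells of a type and less RNA per cell cannot be told apart.

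Gene counts summed to 1293688 in the shallowest library and to 4056144 in the deepest. Levels are given as CPM, the count of a gene relative to the total of its library, after scaling all 12 libraries by the trimmed mean of M values. The QuantSeq kit yields reads near the poly(A) end only, so a longer transcript does not collect more reads, and CPM values of different genes were compared without a correction for length. Siah2 itself was at 11.5, 12.3 and 17.0 CPM in WTF, at 9.63, 10.0 and 12.5 CPM in KOF, at 16.8, 21.4 and 27.1 CPM in WTM and at 9.42, 15.03 and 17.4 CPM in KOM. The groups overlapped in both sexes, and where these 3′ reads lie relative to the deletion is not stated in the study's methods or labels, so Siah2 did not test the genotype labels. The WTF mouse 1091 stood apart from the other libraries. Its median absolute log2 difference from its 2 group mates was 0.54 over all genes, against 0.23 to 0.35 in the other 11 mice, and 0.89 over the 10 pericentral markers, against 0.23 to 0.55. Where a log2 fold change named here moved by over 1.5 times, changed sign or changed its side of the threshold without it, both values are given.

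Cyp2e1, which oxidises ethanol and small toxicants, was by far the most abundant of the markers. It averaged 5106 CPM over the 12 mice and supplied 59.7% of the summed CPM of the 10 genes. Gulo followed at 1076 CPM, Oat at 893 CPM, Glul at 572 CPM, Slc1a2 at 487 CPM and Cyp1a2, an oxidase of caffeine and aromatic amines, at 268 CPM. Lect2 averaged 79.6 CPM, Tbx3 60.5 CPM, Axin2 6.66 CPM and Rhbg 3.15 CPM. Cyp2e1 lay above Gulo in 12 of 12 mice, Oat above Glul in 12 of 12 and Tbx3 above Axin2 in 12 of 12. The ranges of Cyp2e1 and Gulo, and those of Tbx3 and Axin2, did not meet. Other neighbours in this order changed places in some mice: Gulo exceeded Oat in 8, Glul exceeded Slc1a2 in 10, and Lect2 exceeded Tbx3 in 9. Rhbg rested on 3 to 13 counts per mouse and Axin2 on 3 to 32, so their values are coarse. The RefSeq annotation places the lncRNA gene Tbx3os1 over part of Tbx3, and without a stated strand setting reads of the pair cannot be told apart.

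**Figure D1:**
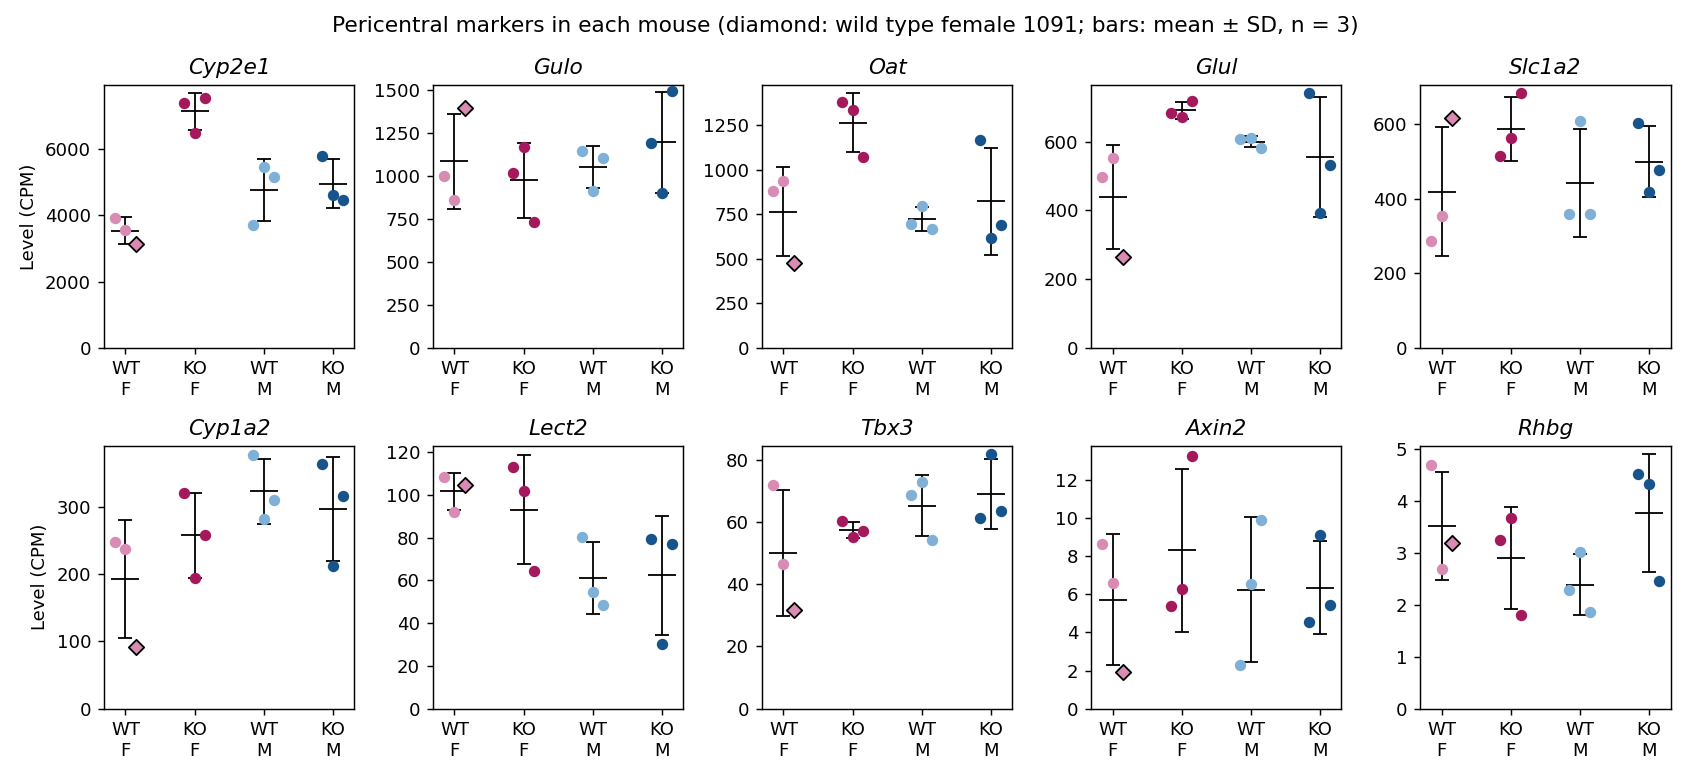
Level of each pericentral marker in CPM (vertical axes, linear, from 0) in the 12 mice, grouped as wild type (WT) and Siah2 KO (KO) females (F) and males (M). Points are mice, the diamond is WTF mouse 1091, and black bars give the mean ± SD (n = 3). Cyp2e1, Oat and Glul in KO females lie above every WT female. Mouse 1091 is the lowest WT female for Cyp2e1, Glul, Oat, Cyp1a2, Tbx3 and Axin2.

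The 250 bases before the RefSeq start of Cyp2e1, Glul and Oat are shown because these are the markers whose female groups separated, described further on. They are written 5′ to 3′ on the strand of the gene, in build GRCm38.p6. Capitals mark the TCF/LEF core TTCAAAG or ATCAAAG on either strand (CTTTGAA is TTCAAAG read from the other strand) and the TATA box TATAAA on the gene strand. Cyp2e1 spans chromosome 7 from 140763819 to 140774990, Glul chromosome 1 from 153899929 to 153909723 and Oat chromosome 7 from 132557475 to 132576398.
Cyp2e1, chr7:140763569-140763818, plus strand: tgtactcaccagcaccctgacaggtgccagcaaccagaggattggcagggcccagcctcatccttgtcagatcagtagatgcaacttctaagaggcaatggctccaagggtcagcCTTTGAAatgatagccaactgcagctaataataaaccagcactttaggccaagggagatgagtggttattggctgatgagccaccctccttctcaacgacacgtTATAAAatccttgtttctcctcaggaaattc
Glul, chr1:153899679-153899928, plus strand: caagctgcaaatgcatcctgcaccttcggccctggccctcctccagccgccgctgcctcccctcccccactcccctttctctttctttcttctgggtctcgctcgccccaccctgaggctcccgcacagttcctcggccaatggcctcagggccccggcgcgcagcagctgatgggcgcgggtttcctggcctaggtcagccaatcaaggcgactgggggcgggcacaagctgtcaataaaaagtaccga
Oat, chr7:132576399-132576648, minus strand: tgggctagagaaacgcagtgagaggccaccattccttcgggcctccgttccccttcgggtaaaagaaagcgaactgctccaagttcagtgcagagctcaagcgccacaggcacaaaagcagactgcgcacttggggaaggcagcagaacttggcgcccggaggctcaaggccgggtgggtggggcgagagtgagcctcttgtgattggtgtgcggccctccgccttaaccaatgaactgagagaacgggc
In Cyp2e1 the TCF/LEF core match lies 135 to 129 bases before the start and the TATA box 31 to 26 bases before it. The windows of Glul and Oat hold neither. Matches in 3 further markers are shown with their flanks, because Wnt control of the pericentral zone acts through TCF/LEF factors.
Lect2, chr13:56548554-56548580, minus strand: gcttctccagATCAAAGgctttggccg
Slc1a2, chr2:102706221-102706247, plus strand: gaagagggacATCAAAGgccccaaatg
Cyp1a2, chr9:57683883-57683905, minus strand: tattctTTCAAAGacatatacct
The Lect2 match begins 32 bases before the start, the Slc1a2 match 207 bases before a start that lies inside the longest form of the gene, and the Cyp1a2 match 244 bases before the start. Cyp1a2 also has a TATA box, 29 to 24 bases before its start. Axin2 held no match, but its window too lies inside the longest form of the gene, so the sequence before that form was not searched. Rhbg, Gulo and Tbx3 had no entry. A TCF/LEF core was thus present in 4 of 7 marker windows, and 7.48% of all 32851 windows of the same length hold one, 3.21% for ATCAAAG and 4.46% for TTCAAAG. The TATA box is present in 7.59% of them. A match of letters is no evidence of binding.

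The first comparison asked whether loss of Siah2 in females alters the pericentral programme. The clearest separation was that of Cyp2e1, which averaged 3542 ± 402 CPM in WTF and 7145 ± 568 CPM in KOF (SD, n = 3 each). Single WTF mice had 3927, 3573 and 3125 CPM, and single KOF mice 7396, 6494 and 7544 CPM. Every KOF mouse lay above every WTF mouse. The log2 fold change was 1.0 (SE 0.26, 95% interval 0.42 to 1.57). Under the quasi-likelihood test of edgeR, adjusted over 9465 genes, the difference did not pass (unadjusted p = 0.00312, adjusted p = 0.122). Other settings put it on the other side of the threshold: the adjusted p was 0.000757 in DESeq2 and 0.0142 in edgeR without mouse 1091, and over 14 alternative settings it ran from 5.7e-06 to 0.385, with 4 of the 14 under 0.05. The log2 fold change stayed between 0.93 and 1.08 in all 14.

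Oat and Glul, the enzymes that remove ornithine and ammonia around the central vein, also separated between female groups. Oat was at 881, 936 and 478 CPM in WTF and at 1381, 1335 and 1074 CPM in KOF. Its log2 fold change was 0.71 (SE 0.30, unadjusted p = 0.0373, adjusted p = 0.282 in edgeR). Every KOF value exceeded every WTF value, and the lowest WTF value was that of mouse 1091. Glul was at 497, 552 and 266 CPM in WTF and at 685, 672 and 719 CPM in KOF, a log2 fold change of 0.65 (SE 0.29, unadjusted p = 0.0501, adjusted p = 0.321 in edgeR). Again the groups did not overlap and mouse 1091 was lowest. Without it the log2 fold changes were 0.48 for Oat and 0.40 for Glul, with adjusted p-values of 0.128 and 0.157. Both genes failed the adjusted threshold in each of their 14 alternative settings.

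Slc1a2, which imports glutamate for Glul to act on, was at 287, 355 and 616 CPM in WTF and at 516, 564 and 684 CPM in KOF. The groups overlapped through mouse 1091, which was high for this gene, and the log2 fold change of 0.47 (SE 0.31) had an adjusted p of 0.503 in edgeR. Without mouse 1091 the log2 fold change was 0.87 (SE 0.20), and the adjusted p was 0.0215 in edgeR and 0.000650 in DESeq2. Over its 14 alternatives the adjusted p ran from 0.000650 to 0.805, and these 2 were the ones under 0.05. Cyp1a2 was at 248, 237 and 91.1 CPM in WTF and at 321, 194 and 259 CPM in KOF. Its groups overlapped, and its log2 fold change was 0.41 with mouse 1091 and 0.09 without it. Axin2, a direct readout of Wnt signalling, had a log2 fold change of 0.47 with an interval from -0.78 to 1.71, and 0.04 without mouse 1091. The fitted values of Tbx3 (0.19), Lect2 (-0.14) and Gulo (-0.17) had intervals that included 0, and those of Tbx3 and Gulo changed sign without mouse 1091, to -0.03 and 0.07.

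Over the 9 markers tested in females, edgeR called 0 at an adjusted p under 0.05, and it called 0% of all genes. DESeq2 called 1 marker, Cyp2e1, and 3.7% of all genes. At an unadjusted p under 0.05 edgeR had 2 markers, Cyp2e1 and Oat, both higher in KOF, beside 15.6% of all genes in either direction and 7.3% higher. Markers higher in KOF without overlap numbered 3 of 9, beside 11.4% of all genes. The median log2 fold change was 0.47 over the 9 markers and -0.03 over all genes tested. That median depended on 1 mouse: without mouse 1091 it was 0.08 over 10 markers, while edgeR then called 2 of the 10, Cyp2e1 and Slc1a2, and 9.64% of all genes. Rhbg passed the filter on low counts in that setting and not with all 6 mice.

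In males no marker separated by genotype. Cyp2e1 was at 3702, 5457 and 5159 CPM in WTM and at 5803, 4616 and 4473 CPM in KOM, a log2 fold change of 0.04 with a 95% interval from -0.32 to 0.41. The male interval thus ended below the lower bound of 0.42 in females. Glul was at 608, 612 and 582 CPM in WTM and at 742, 393 and 531 CPM in KOM, so the KO males spread to both sides of a tight wild type group. Oat was at 696, 799 and 670 CPM in WTM and at 1166, 615 and 687 CPM in KOM. In both genes KOM 1075 was highest and KOM 1076 lowest. KOM 1076 was also the library with the largest share of the ribosomal precursor Rn45s, 17.9% of its counts against 5.68% to 14.9% in the other 11. With Rn45s left out of the counts, no marker changed direction in males and none was called. The part of that share in these single values was not tested. The 9 markers tested had log2 fold changes from -0.13 to 0.17, with a median of 0.05. Adjusted p-values were all 1.0 in edgeR, which called 0 markers and 0% of all genes. At an unadjusted p under 0.05 it had 0 markers beside 4.05% of all genes, DESeq2 called 0 markers and 0.037% of all genes, and 0 of 9 markers lacked overlap beside 8.87% of all genes.

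An interaction term over all 12 mice tested whether the sexes differed in their change. For Cyp2e1 the change in females exceeded that in males by 0.96 on the log2 scale (SE 0.30, 95% interval 0.33 to 1.59). That difference did not pass in edgeR (unadjusted p = 0.00537, adjusted p = 0.146) and passed in DESeq2 (adjusted p = 0.0178). Its adjusted p ran from 0.00753 to 0.363 over 19 alternatives and was 0.0502 in edgeR without mouse 1091. The interaction of Glul was 0.77 (SE 0.37, unadjusted p = 0.0540, adjusted p = 0.367 in edgeR) and that of Oat 0.53 (SE 0.39, adjusted p = 0.599 in edgeR). Without mouse 1091 they were 0.52 for Glul and 0.30 for Oat. For the other 7 markers the interval of the interaction also included 0. Among them, leaving out mouse 1091 moved Slc1a2 from 0.31 to 0.71, Cyp1a2 from 0.54 to 0.21, Axin2 from 0.58 to 0.18, Gulo from -0.34 to -0.10 and Tbx3 from 0.12 to -0.11. EdgeR called 0 of 10 markers beside 0.255% of all genes, DESeq2 called 1 beside 3.32%, and 1 of 10 had an unadjusted p under 0.05 beside 14.1%. With the sexes combined and sex as a term, Cyp2e1 had a log2 fold change of 0.53 (unadjusted p = 0.0140, adjusted p = 0.690 in edgeR) and Oat 0.46 (unadjusted p = 0.0396, adjusted p = 0.690 in edgeR), and without mouse 1091 they were at 0.43 and 0.31. None of the 10 was called there by edgeR, which called 0.0102% of all genes, or by DESeq2, which called 0.0112%. At an unadjusted p under 0.05 edgeR had those 2 markers beside 7.2% of all genes.

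**Figure D2:**
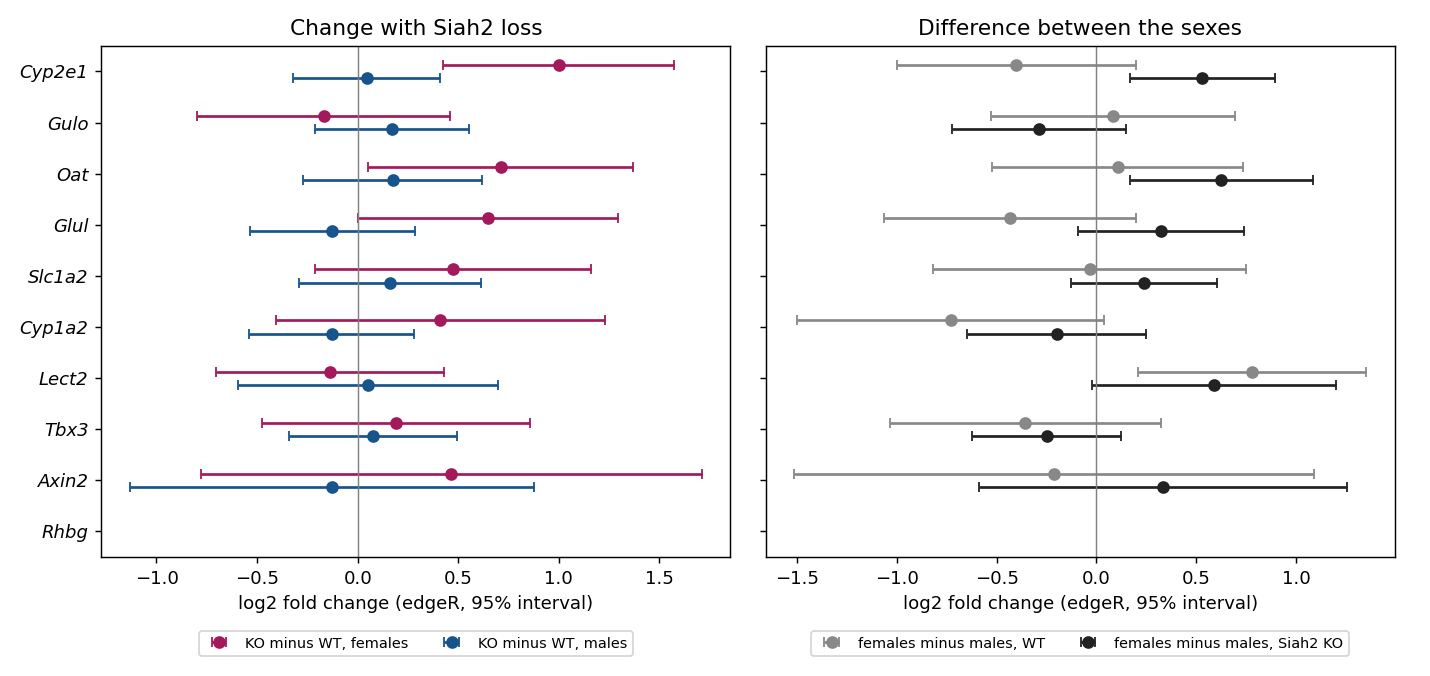
Log2 fold changes of the pericentral markers with 95% intervals from edgeR (horizontal axes), for Siah2 KO against wild type in each sex (left) and for females against males in each genotype (right). Cyp2e1 and Oat in the female KO comparison have intervals above 0, the 9 male intervals include 0, and Rhbg has no point because it failed the low-count filter of these fits.

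Sex differences of the markers were then compared in each genotype. The wild type comparison uses the same WTF mice as the female KO comparison, mouse 1091 included. Lect2, a hepatokine gene, separated with females higher: 109, 92.1 and 105 CPM in WTF against 80.3, 54.8 and 48.6 CPM in WTM. Its log2 fold change was 0.78 (SE 0.26, unadjusted p = 0.0126, adjusted p = 0.191 in edgeR), and 0.74 without mouse 1091. In the other mice Lect2 was at 113, 102 and 64.4 CPM in KOF and at 79.5, 30.4 and 77.1 CPM in KOM, a log2 fold change of 0.59 (SE 0.29, adjusted p = 0.209 in edgeR) with overlapping groups. Of 13 alternatives for that value, the unfiltered edgeR fit alone put Lect2 under 0.05, with an adjusted p of 0.0483. Cyp1a2 separated the other way, at 377, 283 and 311 CPM in WTM and at most 248 CPM in WTF, with a log2 fold change of -0.73 (SE 0.35, adjusted p = 0.355 in edgeR) that was -0.41 without mouse 1091. Glul was also lower in every WTF than in every WTM mouse, with a log2 fold change of -0.43, and of -0.19 without mouse 1091. Thus 3 of 9 markers lacked overlap, beside 22.7% of all genes. At an adjusted p under 0.05 edgeR called 0 of 9 and 1.39% of all genes, DESeq2 called 0 and 3.74%, and at an unadjusted p under 0.05 edgeR had 1 of 9 and 15.2%.

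Among Siah2 KO mice, Cyp2e1 was higher in each female than in each male, with a log2 fold change of 0.53 (SE 0.17, 95% interval 0.17 to 0.89). The adjusted p was 0.0561 in edgeR and 0.00888 in DESeq2, and ran from 0.00888 to 0.207 over 13 alternatives. In wild type mice the fitted value had the other sign, -0.40, with an interval from -1.0 to 0.20. Oat followed at 0.63 (SE 0.21, adjusted p = 0.0736 in edgeR and 0.0446 in DESeq2), and its groups overlapped because KOM 1075 reached 1166 CPM. Without KOM 1075 the Oat value was 0.96 with an adjusted p of 0.00828 in edgeR, and edgeR then called 2 markers, Cyp2e1 (adjusted p = 0.0478) and Oat, beside 7.88% of all genes. Without KOF 1105 Oat was at 0.73 with an adjusted p of 0.0497 in edgeR. Over its 13 alternatives the adjusted p of Oat ran from 0.00828 to 0.269. Tbx3 was lower in every KOF than in every KOM mouse, 55.2 to 60.3 CPM against 61.4 to 82.0 CPM, with an adjusted p of 0.406 in edgeR. EdgeR called 0 of 9 markers in this comparison while calling 11.5% of all genes, and 2 of 9 lacked overlap beside 30.7%. DESeq2 called 2 markers, Cyp2e1 and Oat, beside 9.91% of all genes.

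The markers did not move as a unit from mouse to mouse. After the mean of each group was taken away, log CPM of Glul and Oat ran together over the 12 mice (Pearson r = 0.91, and 0.82 without mouse 1091), as did those of Glul and Cyp1a2 (0.87, and 0.66 without it). Lect2 and Gulo formed a second pair (0.70, and 0.80 without it), and Lect2 ran against Axin2 (-0.66, and -0.80 without it). Glul and Cyp2e1 were less alike (0.52, and 0.40 without it). Glul and Slc1a2 turned from -0.27 to 0.56 when mouse 1091 was left out. These coefficients describe 12 libraries that share scaling and depth within each mouse, and genes with few counts such as Axin2 carry counting error into them. Relative to its mates, mouse 1091 was lower by more than 2-fold in 2 markers, with log2 differences of -1.98 for Axin2 and -1.41 for Cyp1a2. It was lower in Glul (-0.98), Oat (-0.92) and Tbx3 (-0.86) and higher in Slc1a2 (0.95) and Gulo (0.59). Cyp2e1 differed less (-0.26). Outside the lists examined, the genes most like the mean of the markers among 6593 genes averaging 10 CPM or more were Rpain (r = 0.93), Mcm3ap (0.92) and 3110001D03Rik (0.91). Without mouse 1091 the closest were Mea1 (0.95) and Zfp787 (0.94), with Rpain the third (0.93). With all 12 mice Mea1 was at 0.17 (rank 2441) and Zfp787 at -0.18 (rank 4178), so their likeness depended on leaving out 1 mouse. All of these genes, Rpain included, were picked as the top of 6593 coefficients over at most 12 mice. How high such a top lies among unrelated genes was not tested, so no relation to the markers is read from them.

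**Figure D3:**
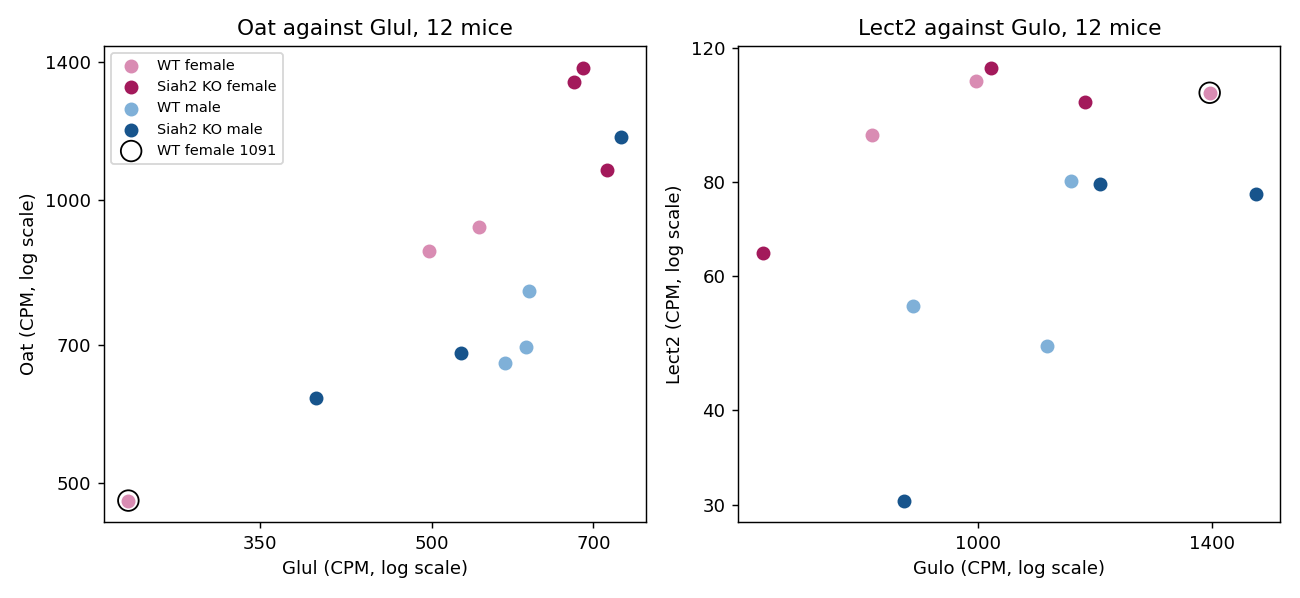
Oat against Glul (left) and Lect2 against Gulo (right) in CPM on log axes, 1 point per mouse coloured by group, with WTF mouse 1091 circled. Oat and Glul are lowest together in mouse 1091 and highest together in KO females and 1 KO male, while mouse 1091 sits at the high end of Gulo.

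Other genes of the lobule were read beside the markers. Of 18 further pericentral genes, 18 were tested in females and edgeR called 0, beside 0% of all genes. At an unadjusted p under 0.05 it had 3 of the 18, near the 15.6% of all genes. The vasopressin receptor gene Avpr1a was lower in KOF (52.8 ± 6.74 CPM against 97.5 ± 18.2 CPM in WTF, log2 fold change -0.89, adjusted p = 0.127 in edgeR), as was the organic anion transporter gene Slco1b2 (-0.58, adjusted p = 0.286), and the glutathione transferase gene Gstm3 was higher (0.76, adjusted p = 0.234). Without mouse 1091 edgeR called 3 of the 18 beside 9.64% of all genes, among them Avpr1a (-0.76, adjusted p = 0.0401) and Slco1b2 (-0.66, adjusted p = 0.0380). Gstm3 has close relatives, so its reads may be shared with them. The median of the 18 was 0.28 in females and -0.07 in males. Summed over the list, further pericentral genes were at 10400 to 12215 CPM in WTF and at 11310 to 13879 CPM in KOF, and these ranges overlapped. The sum of the 10 markers, in which Cyp2e1 dominates, ran from 6113 to 7032 CPM in WTF and from 10593 to 11500 CPM in KOF, and from 7037 to 10020 CPM over both male groups.

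Periportal genes showed no common direction. Of 16 tested in females edgeR called 0, beside 0% of all genes, and their median was -0.27. At an unadjusted p under 0.05 it had 3 higher and 3 lower, beside 7.3% of all genes higher and 8.31% lower. The gluconeogenic gene Pck1 (log2 fold change 1.59, adjusted p = 0.190 in edgeR) and the serine dehydratase gene Sds (1.97, adjusted p = 0.201) were higher in every KOF mouse, and the aldehyde dehydrogenase gene Aldh1b1 was lower in every one (-1.0, adjusted p = 0.199). DESeq2 called 1 of the 16, Pck1 (adjusted p = 0.0179), beside 3.7% of all genes. Of 14 alternatives for Pck1, 2 put it under 0.05. Without mouse 1091 the values were 1.25 for Pck1, 1.44 for Sds and -1.16 for Aldh1b1, and edgeR called Sds (adjusted p = 0.00546), Aldh1b1 (adjusted p = 0.0293) and 1 further gene of the 16, Hsd17b13, beside 9.64% of all genes. Pck1 alone averaged 4229 CPM in WTF and 12824 CPM in KOF, so the summed periportal level also separated, at 12066 to 17323 CPM against 19178 to 24203 CPM. Without Pck1 the mean periportal sum was lower in KOF, 9156 CPM against 10024 CPM in WTF, with overlapping ranges (7414 to 10205 CPM against 9230 to 11491 CPM). Without Cyp2e1 the marker sum still separated, at 2988 to 3105 CPM in WTF and 3606 to 4104 CPM in KOF. In males edgeR called 0 of 16, beside 0% of all genes, and the median was -0.13. Between wild type females and males edgeR called 2 of 16 periportal genes beside 1.39% of all genes, both higher in females: Fbp1, a gluconeogenic gene (log2 fold change 1.30, adjusted p = 0.0285), and Aldh1b1 (1.46, adjusted p = 0.0394). Each call was lost when any 1 of the 5 mice other than 1091 was left out, with adjusted p-values up to 0.212 for Fbp1 and 0.222 for Aldh1b1. Without 1091 edgeR called 4 of the 16, beside 740 of all 9576 genes tested. Among Siah2 KO mice edgeR called 7 of 16 periportal genes and 5 of 18 further pericentral genes, in both directions, beside 11.5% of all genes.

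Of the 4 midlobular genes, Cyp8b1, the sterol hydroxylase gene that sets the ratio of bile acids, was at 78.0 ± 16.4 CPM in WTF, 21.7 ± 0.52 CPM in KOF, 46.8 ± 15.4 CPM in WTM and 62.7 ± 16.1 CPM in KOM. The change in females was lower than that in males by a log2 value of -2.29 (adjusted p = 0.0460 in edgeR). With 1 of the 12 mice left out, the call was lost in 9 of 12 fits, with adjusted p-values up to 0.146, and kept without WTM 1055, WTF 1090 or WTF 1091, while the log2 value stayed below 0 in all 12. The female change alone was -1.86 (adjusted p = 0.0674 in edgeR and 2.43e-06 in DESeq2), and -2.0 without mouse 1091 (adjusted p = 0.00104 in edgeR). The hepcidin gene Hamp2 was higher in wild type females than in wild type males by 2.98 (adjusted p = 0.0191 in edgeR), a call lost without WTM 1055 (adjusted p = 0.0943) or WTM 1087 (adjusted p = 0.149). Hamp2 was higher in every KOF mouse (792 ± 312 CPM) than in every WTF mouse (359 ± 91.7 CPM). The adjusted p was 0.168 in edgeR and 0.0453 in DESeq2. In males it was at 46.1 ± 37.2 CPM in WTM and 13.7 ± 7.38 CPM in KOM, with overlap. Its interaction had an adjusted p of 0.0847 in edgeR and 0.0379 in DESeq2. In females 2 of the 4 genes were above 0 and 2 below. Without mouse 1091 edgeR called 2 there, Hamp2 and Cyp8b1, beside 9.64% of all genes. Hamp2 is a close copy of Hamp, so reads may be split between them.

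**Figure D4:**
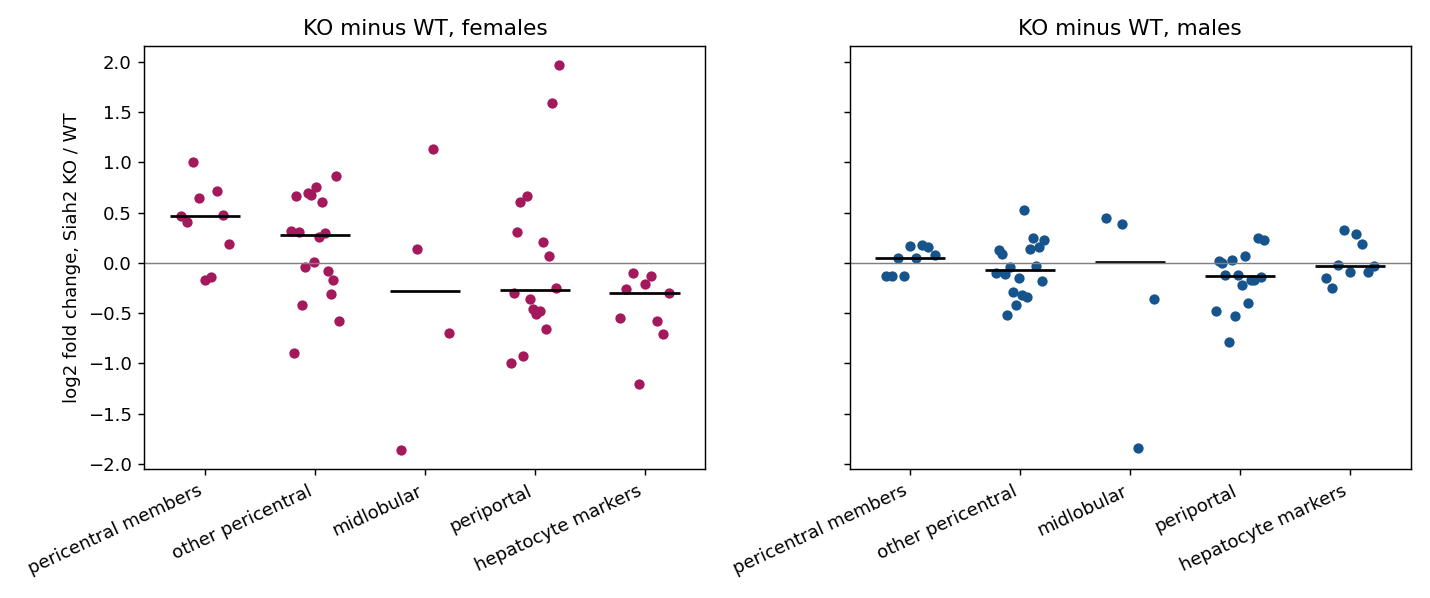
Log2 fold change of Siah2 KO against wild type (vertical axis) in females (left) and males (right) for the tested genes of 5 lists, 1 point per gene, with a line at the list median. In females the 9 pericentral markers have a median of 0.47, the further pericentral genes 0.28, the periportal genes -0.27 and the hepatocyte markers -0.30, and the male medians lie closer to 0. The female marker median is 0.08 without mouse 1091.

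The Wnt pathway that drives the pericentral zone was examined by role. Of 6 ligand and R-spondin genes, 4 were tested. EdgeR called 0 of them in the female, male, interaction, wild type sex and KO sex comparisons. It called 0%, 0%, 0.255%, 1.39% and 11.5% of all genes there. Unadjusted p-values of the 4 genes in edgeR were above 0.05 throughout. Rspo3, the R-spondin of central vein endothelium, was at 7.10 ± 1.22 CPM in WTF and 7.95 ± 0.66 CPM in KOF. Wnt9b was at 0 in several libraries and did not pass the filter. Of 10 receptor genes, 10 were tested in females and 9 in males. EdgeR called 0 of them with Siah2 loss in either sex, and 0% of all genes. The co-receptor gene Lrp6 was higher in every KOF than in every WTF mouse (log2 fold change 1.03, adjusted p = 0.255 in edgeR). It was the 1 receptor gene of 10 to be so, beside 11.4% of all genes. Without mouse 1091 its log2 fold change was 0.66 (adjusted p = 0.0736 in edgeR). Fzd7 was lower in every KOM than in every WTM mouse (-0.89, unadjusted p = 0.00345, adjusted p = 1.0 in edgeR). Of the 9 receptor genes tested in males, 1 was higher and 1 lower without overlap, beside 8.87% of all genes in either direction. In females Fzd7 was at 6.56 ± 5.52 CPM in WTF (9.53 CPM without mouse 1091) and 18.8 ± 10.9 CPM in KOF. Those groups overlapped (unadjusted p = 0.0585 in edgeR). The interaction had an unadjusted p of 0.00658 and an adjusted p of 0.164 in edgeR. Fzd7 was also lower in every WTF than in every WTM mouse (adjusted p = 0.165 in edgeR and 0.0324 in DESeq2). Lower without overlap there were 2 of 9 receptor genes tested, beside 1049 of 9335 genes. Without mouse 1091 edgeR called 2 of the 10 there, Lrp6 and Fzd7, beside 740 of 9576 genes. Of 17 cytoplasmic and nuclear components, 13 were tested in each sex. EdgeR called 0 of them with Siah2 loss in either sex, and 0% of all genes. The kinase gene Gsk3a (-1.06) and the TCF family gene Tcf7l1 (-1.08) were lower in every KOF mouse (adjusted p = 0.141 for each in edgeR). These were the 2 of 13 lower without overlap in females, beside 1125 of all 9465 genes. Without mouse 1091 edgeR called 3 genes of that list, Gsk3a (-1.15, adjusted p = 0.0286), Csnk1a1 and Dvl1, beside 9.64% of all genes. Of 6 feedback inhibitors and targets, 4 were tested. Between wild type sexes edgeR called 1 of the 4, the cell cycle gene Ccnd1, beside 1.39% of all genes. Ccnd1 averaged 323 ± 78.5 CPM in WTF and 51.4 ± 5.13 CPM in WTM (log2 fold change 2.68, adjusted p = 0.000984 in edgeR). Between KO sexes Ccnd1 was again the 1 of 4 called, beside 11.5% of all genes, with a log2 fold change of 2.31. With Siah2 loss in females its log2 fold change was -0.10 (adjusted p = 0.921 in edgeR), and 0.10 without mouse 1091. Of 10 genes of glutamine and ornithine handling, and of 5 tested regulators of Cyp1a2 and Cyp2e1, edgeR called 0 in the female, male and wild type sex comparisons. It called 0%, 0% and 1.39% of all genes there. Between KO sexes it called 3 of the 10, with Got1 and Prodh higher in females and Slc38a2 lower, and 1 of the 5, Hnf4a, lower in females, beside 11.5% of all genes.

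Markers of other cell types were read beside these results. The hepatocyte markers were abundant in every library, with 44006 to 53668 CPM in WTM and 67544 to 77006 CPM in WTF when summed over 9 genes. The hepatocyte sum was 46639 to 61883 CPM in KOF, below the WTF range. In females 9 of 9 genes had log2 fold changes below 0 with a median of -0.30. EdgeR called 0 of the 9, and 0% of all genes. Without mouse 1091, 7 of 9 were below 0 with a median of -0.27, and Ahsg and Fgb were above 0. EdgeR then called 2 of the 9, Apob and Trf, beside 9.64% of all genes. Sinusoidal endothelial markers summed to 321 to 414 CPM in WTF and 286 to 306 CPM in KOF, with 7 of 9 below 0 and 0 called. Without mouse 1091, 6 of 9 were below 0 and edgeR called 1, Bmp2, near the 9.64% of all genes. Of the Kupffer cell markers edgeR called 3 of 10 between wild type sexes, beside 1.39% of all genes, and 6 of 9 between KO sexes, beside 11.5%, each of them higher in females. Marco was lower in wild type females, with a log2 fold change of -0.89, and was not called there. The Kupffer sums overlapped, at 379 to 865 CPM over the 6 females and 101 to 637 CPM over the 6 males. Stellate cell markers were at 183 to 373 CPM in WTF, lowest in mouse 1091, and at 177 to 249 CPM in KOF. Bile duct markers were at 40.8 CPM in mouse 1091 and at 74.6 to 133 CPM in the other 11 mice. The globin genes Hba-a1, Hba-a2, Hbb-b1 and Hbb-b2, the fat cell genes Plin1 and Retn and the acinar genes Cpa1, Ctrb1 and Prss2 were at 0 in the 12 libraries. The sums of red blood cell markers, from 10.7 to 28.8 CPM in females and from 89.0 to 155 CPM in males, came largely from Alas2. Of 8 red blood cell genes listed, 6 were among the deposited symbols, and the annotation is not stated. The globin values of 0 were therefore not read as absence of blood. Fat cell markers summed to at most 26.4 CPM, and pancreatic acinar markers to at most 57.4 CPM, both in males. The part of these cell types in the marker values was not tested.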

How the data were processed

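QuantSeq 3′ libraries were made from the livers of 12 mice. For each sex, the authors deposited 1 table of raw, unscaled read counts by gene symbol. The submitters' processing notes name STAR, DESeq and mm10, without versions. The sources used here give no annotation, strand setting or UMIs, so limits from counting cover counting error only.

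Genes were kept by filterByExpr, libraries scaled by TMM, and groups compared by the two-sided quasi-likelihood F test of edgeR 4.0.16 under R 4.3.3, on the 6 mice concerned, or on 12 mice for the interaction and for both sexes combined, with Benjamini-Hochberg adjustment over all genes and a threshold of 0.05. Standard errors are those implied by the F statistic. DESeq2 1.42.0, named in the study's methods, and limma 3.58.1 (voom) were alternatives, as were RLE scaling, 2 other count filters, counts without Rn45s, all 12 mice in 4 groups, leaving out the sex term, and leaving out each mouse in turn. DESeq2 without mouse 1091, the gene lists without it, and these alternatives for the listed genes named in the text were added after the data were seen. The fits were also run on simulated data of the same depths, with planted changes larger than any fitted for a marker. Recovery of changes as small as those of the markers was not tested. Log CPM used a prior count of 3.

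The markers, the gene lists and the rule for naming genes were chosen with earlier results of these data known. The rule took all 10 markers, Siah2, the 3 genes of each pathway list with the smallest unadjusted p in each of 4 comparisons, and the 3 genes most like the markers. Of the listed genes, those named in the text were chosen after their values were seen, at an unadjusted p under 0.05 or as a point of reference (Rspo3, Wnt9b). Promoters came from RefSeq (GRCm38.p6), with an entry for 7 of the 10 markers. Nothing states that the mice of a group came from separate litters, so p-values measure the spread between these mice.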

Additional observations from a re-analysis of the deposited data

Results flagged for a closer look

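Cyp8b1, a midlobular gene, met the test of a difference between the sexes. Its change with Siah2 loss in females minus that in males was -2.29 on the log2 scale (SE 0.37, adjusted p = 0.0460 in edgeR and 2.7e-05 in DESeq2). With 1 mouse left out, edgeR lost the call in 9 of 12 fits, with adjusted p-values up to 0.146, and kept it in 3, while the value ran from -2.54 to -2.09 over 19 alternatives. It was lower in each of the 3 KOF mice than in each WTF mouse. No pericentral marker had an interaction past the threshold in edgeR, and groups of 3 mice are too small for the test of single outlying samples, which needs at least 4.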

How the results depend on the processing

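Of the log2 fold changes of the markers, 365 of 375 under settings that kept every mouse kept their direction and side of the threshold, 10 crossed it and 0 reversed. Of 456 edgeR values with a mouse left out 407 kept both, 5 crossed and 44 reversed. DESeq2 without mouse 1091 kept 28 of 38, moved 3 across the threshold and reversed 7: in females Gulo 0.084 and Tbx3 -0.020, in the interaction Tbx3 -0.11, over both sexes Cyp1a2 -0.022 and Axin2 -0.00924, and between wild type sexes Axin2 0.20 and Gulo -0.20. No paired analysis was possible because the groups share no replicate numbers.

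Calls over all genes depended on the tool. In females edgeR called 0 genes, DESeq2 303 (176 higher), edgeR without a filter 484, the fit of all 12 mice 427 and DESeq2 without mouse 1091 828. Markers called were 0, 1 in DESeq2, 1 in the fit of 12 mice and 2 in DESeq2 without mouse 1091. In males DESeq2 called 6 genes and the unfiltered fit 29. The interaction had 260 in DESeq2, 325 unfiltered and 647 in DESeq2 without mouse 1091, with 1 marker in the first and the last. Over both sexes these settings called 2, 71 and 3. Between wild type sexes edgeR called 130, DESeq2 338, the unfiltered fit 536, a minimum of 10 counts in every library 50, the fit of 12 mice 505 and DESeq2 without mouse 1091 728. Between KO sexes edgeR called 1044 and the fit of 12 mice 352. There DESeq2 and limma-voom called 2 markers, Cyp2e1 and Oat, the unfiltered fit 2, Oat and Lect2, and the fit without Rn45s 1, Cyp2e1. The cause of these differences was not tested.

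With each mouse left out, all-gene calls ran from 0 to 936 in females, 0 to 3 in males, 0 to 522 for the interaction, 0 to 2 over both sexes, 43 to 740 between wild type sexes and 486 to 1056 between KO sexes, and marker calls from 0 to 2 in females and from 0 to 2 between KO sexes. The highest counts in females, the interaction and wild type sexes came without mouse 1091. With depths of 1293688 to 4056144 counts, 3 counts correspond to 0.739 to 2.29 CPM, which limits Rhbg and Axin2. With each mouse left out, the log2 fold changes that changed sign, none of them called, ran for females Gulo from -0.32 to 0.070, Lect2 from -0.30 to 0.057, Tbx3 from -0.033 to 0.54. They ran for males Axin2 from -0.44 to 0.41, Cyp1a2 from -0.28 to 0.069, Cyp2e1 from -0.100 to 0.17, Glul from -0.37 to 0.076, Gulo from -0.0069 to 0.35, Lect2 from -0.13 to 0.37, Oat from -0.14 to 0.35, Tbx3 from -0.059 to 0.19. They ran for the interaction Lect2 from -0.49 to 0.034, Slc1a2 from -0.038 to 0.71, Tbx3 from -0.11 to 0.47. They ran for both sexes Axin2 from -0.039 to 0.44, Cyp1a2 from -0.030 to 0.27, Gulo from -0.11 to 0.13, Lect2 from -0.14 to 0.097. They ran for wild type sexes Axin2 from -0.63 to 0.29, Gulo from -0.18 to 0.24, Oat from -0.048 to 0.34, Slc1a2 from -0.46 to 0.27. They ran for KO sexes Axin2 from -0.10 to 0.65. Of 269 values of the other genes named in the text, 222 kept direction and side of the threshold, 21 came under it, 23 went over it and 3 reversed: Ccnd1 in females ran from -0.44 to 0.12 with a mouse left out and was at 0.11 in DESeq2 without mouse 1091.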
